A study of Homo sapiens with 3 samples.

Results

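The miR-106a to miR-363 cluster is a group of miRNA hairpins on the human X chromosome. Members were taken by name. The rule named 6 hairpins (hsa-mir-106a, hsa-mir-18b, hsa-mir-20b, hsa-mir-19b-2, hsa-mir-92a-2 and hsa-mir-363, written below without the species prefix) and the mature arms cut from them. Of these, 5 had a row among the 661 hairpins listed in the data, and 5 of the 851 mature rows were arms of those hairpins (miR-106a-5p, miR-18b-5p, miR-20b-5p, miR-19b-3p and miR-92a-3p). The sixth, mir-363, was not analysed here.

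The data came from MV4-11, an acute myeloid leukemia (AML) cell line that is homozygous for an internal tandem duplication of the FLT3 receptor (FLT3-ITD) and carries the MLL-AF4 fusion, with the genotype given as WT. All cultures carried EV, an empty lentiviral CRISPR-Cas9 vector with no guide against a gene, and were grown for 2 weeks before total RNA was taken. There were 3 replicate cultures in 1 group, so all comparisons here are between miRNAs in the same libraries or between replicates. The model is a single leukemia line, and every test measures only the spread between its 3 cultures.

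miRNA hairpins of a cluster are transcribed together as a long precursor and cut apart in the nucleus, so that neighbors on a transcript can still end at different mature levels. The X cluster is an ancient duplicate of the miR-17 to miR-92a cluster on chromosome 13, which is induced by MYC and promotes growth in blood cancers, and a further relative (miR-106b, miR-93 and miR-25) lies in an intron of the replication gene MCM7. A mature miRNA recognizes its targets mainly through its seed, bases 2 to 8, so paralogs with the same seed act on largely the same target genes: the miR-17 seed family (miR-106a and miR-20b on X) represses cell cycle inhibitors such as p21 and the proapoptotic BIM, and miR-92a shares its seed with miR-25.

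In RefSeq annotation of GRCh38.p14, all 6 hairpins lay on the minus strand of chromosome X within 901 bases (chrX:134169378-134170278). From 5′ to 3′ these were MIR106A (chrX:134170198-134170278), MIR18B (chrX:134170041-134170111), MIR20B (chrX:134169809-134169877), MIR19B2 (chrX:134169671-134169766), MIR92A2 (chrX:134169538-134169612) and MIR363 (chrX:134169378-134169452). All lay inside exon 2 (chrX:134168911-134170352) of a noncoding gene that GENCODE release 29 calls AC002407.1 (chrX:134168911-134174089), which overlaps the noncoding gene MIR106AHG of RefSeq (chrX:134169150-134174088). They are therefore exonic in a noncoding host and in no coding sequence.

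The mature sequences decide which reads can be traced to X. They are shown, 5′ to 3′ as given by RefSeq, each followed by its nearest relative from another locus where that relative differs, with the seed in capitals.
miR-106a-5p: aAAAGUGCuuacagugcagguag
miR-17-5p: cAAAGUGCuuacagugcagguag
miR-18b-5p: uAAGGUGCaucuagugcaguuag
miR-18a-5p: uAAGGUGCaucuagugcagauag
miR-20b-5p: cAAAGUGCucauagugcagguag
miR-20a-5p: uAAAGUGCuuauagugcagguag
miR-19b-3p: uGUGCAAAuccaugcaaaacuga
miR-92a-3p: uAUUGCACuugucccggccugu

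Counting from 1 at the 5′ end and giving the chromosome 13 base first, miR-106a-5p differed from miR-17-5p by C1A, with 22 of 23 bases identical. miR-18b-5p differed from miR-18a-5p by A20U, again with 22 of 23 identical. miR-20b-5p differed from miR-20a-5p by U1C and U10C, with 21 of 23 identical. None of these changes lay in the seed. A full-length read of these 3 members can therefore be told from its paralog, by a single base for miR-106a-5p and miR-18b-5p. A read that lacks its first base fits both miR-106a-5p and miR-17-5p.

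The remaining members have no such base. miR-19b-3p and miR-92a-3p are each made, letter for letter, from a hairpin on X and from another on chromosome 13. The hairpins are shown with the shared mature sequence in capitals, since only the lower-case letters can separate the copies.
mir-19b-2 (X): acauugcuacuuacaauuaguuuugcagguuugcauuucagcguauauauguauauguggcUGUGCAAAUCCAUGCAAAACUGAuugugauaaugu
mir-19b-1 (chromosome 13): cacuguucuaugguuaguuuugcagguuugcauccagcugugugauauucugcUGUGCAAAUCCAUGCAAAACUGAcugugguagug
mir-92a-2 (X): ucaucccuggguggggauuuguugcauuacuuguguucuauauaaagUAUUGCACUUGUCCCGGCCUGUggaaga
mir-92a-1 (chromosome 13): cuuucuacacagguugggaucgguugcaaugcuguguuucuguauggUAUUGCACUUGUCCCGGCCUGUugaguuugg

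Right after the mature sequence the copies shared 0 bases (C on chromosome 13 against U on X for 19b, U against G for 92a), and before it they shared 2 bases for 19b and 1 for 92a. A read of the exact mature sequence fits both loci, whereas a read running past it does not. Accordingly, the cluster is described in separate groups: unique members (mir-106a, mir-18b, mir-20b) and shared members (mir-19b-2, mir-92a-2).

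The libraries held 12722997, 11022587 and 11715711 counts on hairpins in replicates 1, 2 and 3, of which between 1.34% and 2.13% were on the X cluster. Counts over mature rows differed between any pair of replicates by far more than sampling noise (chi-square at least 324 per degree of freedom), so no library was a copy of another. The value was 1712 for replicates 1 and 2, 3161 for 1 and 3, and 324 for 2 and 3. It cannot tell separate cultures from separate library preparations. Among blood miRNAs chosen as markers, 6 of 6 had rows and together made up 3.11% to 5.58% of mature counts, led by miR-155-5p and miR-142-3p, while miR-150-5p had 7 to 21 counts. Of 8 miRNAs chosen as markers of other tissues, 7 had rows and made up 0.754% to 0.960%, most of it miR-9-5p, with the erythroid miR-451a at 10 to 24 counts. The sum was not read as a sign of other cells.

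Listed levels of the 5 hairpins differed widely in the same cells, from 61.2 FPKM for mir-18b to 212235 FPKM for mir-92a-2. Levels are FPKM, which divides counts by hairpin length and library size and so allows comparison between hairpins. mir-92a-2 had 165214, 163862 and 225795 counts in replicates 1, 2 and 3, or 212235 ± 43602 FPKM (SD, n = 3), rank 14 of the 661 hairpins. mir-19b-2 had 5159, 14977 and 20139 counts, or 12220 ± 7143 FPKM, rank 91. Both shared members are thus listed among the most abundant hairpins of the line, at values that may include reads made from the chromosome 13 copies.

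The unique members were much lower. mir-106a, of the miR-17 seed family, had 480, 1132 and 1830 counts, or 1236 ± 741 FPKM (rank 164). mir-20b, of the same seed family, had 186, 851 and 1243 counts, or 970.0 ± 688 FPKM (rank 176). mir-18b had 22, 69 and 57 counts, or 61.2 ± 33.1 FPKM (rank 345). For mir-18b this was 1.73, 6.26 and 4.87 CPM (counts scaled to the library total), with Wilson 95% intervals of 1.14 to 2.62, 4.95 to 7.92 and 3.76 to 6.30. Replicate 1 was the lowest for every one of the 5 hairpins on the FPKM scale. For mir-92a-2 this depends on scaling by the library total, as its raw count was lowest in replicate 2. Cultures were measured in bulk, so fewer cells making a miRNA and fewer molecules per cell cannot be told apart.

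**Figure D1:**
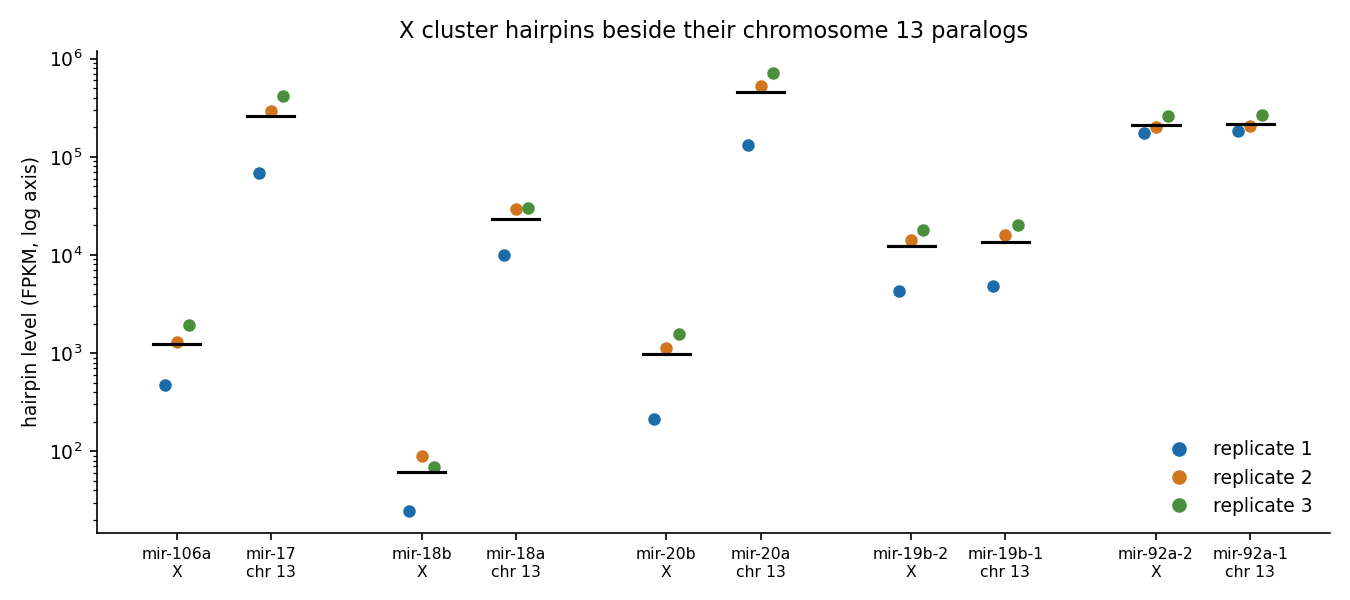
Each point is the level (FPKM, log axis) of a hairpin in 1 of 3 replicates and the black line is the mean, with X hairpins in genomic order, each beside its chromosome 13 paralog. The 3 unique X hairpins sit far below their paralogs, while mir-19b-2 and mir-92a-2 sit level with copies whose mature sequence they share.

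The order mir-92a-2 > mir-19b-2 > mir-106a > mir-20b > mir-18b held in 3 of 3 libraries. mir-92a-2 was 41.1, 14.0 and 14.4 times mir-19b-2 per length, and mir-19b-2 was 9.05, 11.1 and 9.27 times mir-106a. mir-20b was 8.70, 12.7 and 22.4 times mir-18b. The step from mir-106a to mir-20b was the smallest, with ratios of 2.19, 1.13 and 1.25. The means differed by 266 FPKM against an SD of up to 741. That SD is the spread between cultures, not the spread of the ratio within libraries, and no test was made of this step. The mean difference at each other step was larger than the SD of either neighbor.

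Each member was represented by 1 arm. miR-106a-5p and miR-20b-5p had exactly the counts of their hairpins, at 4506 ± 2704 and 3007 ± 2131 FPKM of the mature arm (ranks 207 and 237 of 851 mature rows). miR-18b-5p had 20, 69 and 56 counts, or 192 ± 109 FPKM (rank 483), which left 3 of the 148 hairpin counts outside it. The rows of miR-19b-3p and miR-92a-3p tied to X (by table order) also equaled their hairpins, at 52910 ± 30937 FPKM (rank 92) and 749837 ± 154253 FPKM (rank 14). Mature and hairpin FPKM divide by different lengths and are not set against each other.

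Most of the listed level of the cluster was in its shared members. Summed over the 5 hairpins, the cluster had 180427, 217666 and 282070 FPKM in replicates 1, 2 and 3. mir-92a-2 alone gave 97.2%, 92.3% and 92.3% of this, and mir-19b-2 gave 2.37%, 6.57% and 6.41%. Together they made 99.1% ± 0.475 (SD, n = 3) of the sum.

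The members whose mature sequence is found only at this locus made up the remainder, 0.394%, 1.15% and 1.27%, or 0.939% ± 0.475. mir-106a gave 0.514% ± 0.225, mir-20b 0.398% ± 0.242 and mir-18b 0.0265% ± 0.0138. On raw counts the unique members had 688, 2052 and 3130 of the 171061, 180891 and 249064 counts of the cluster. This was 0.402% (Wilson 95% interval 0.373 to 0.433), 1.13% (1.09 to 1.18) and 1.26% (1.21 to 1.30). The intervals cover counting error only, as libraries without molecular identifiers count PCR copies. The share in replicate 1 was lower than in replicates 2 and 3, with intervals that did not overlap.

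How the counts of the shared members were divided can be read from the mature rows. The rows of a name carry no locus and were tied to hairpins by their order in the table. For miR-92a-3p the row tied to chromosome 13 held more counts than the X hairpin in every library, so the rows could not be exchanged. For miR-19b-3p the row tied to X had exactly the counts of the X hairpin in all 3 libraries. Exchanging the rows of miR-19b-3p would put the arms of mir-19b-1 above their hairpin by 88 counts in replicate 2 and 184 in replicate 3. An excess of some size was seen in 11 of 630 hairpins. Hairpin minus arms was −53, −284 and −11 counts for mir-3607 and −17, −20 and −11 for mir-132, and of smaller size for the others. The exact match with the X hairpin in all 3 libraries held only for the rows as tied. The excess alone does not exclude the exchange, so the tie was kept with that limit. miR-19b-3p has a row for each copy, and the X row held 50.01%, 50.3% and 50.4% of their sum of 10316, 29767 and 39950 counts (exact binomial 95% intervals 49.0 to 51.0, 49.7 to 50.9 and 49.9 to 50.9). For miR-92a-3p the X row held 48.1%, 48.4% and 48.6% of 343413, 338598 and 464310 counts (intervals 47.9 to 48.3, 48.2 to 48.6 and 48.5 to 48.8). The means were 50.2% ± 0.209 and 48.4% ± 0.261. Both names were divided almost evenly between X and chromosome 13.

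An even division was common in these tables. Of 26 mature names with exactly 2 rows and at least 1000 counts in all, 22 (84.6%) had at least 45% of their counts in the smaller row, and the median share of the smaller row was 49.5%. The rows of miR-92a-3p differed by 12985, 10874 and 12720 counts, always in favor of the chromosome 13 row. For miR-19b-3p the row tied to chromosome 13 had 2, 187 and 328 counts fewer than the X row. How the authors' counting treated a read that fits several places is not given in the sources used here, and what set these differences was not tested.

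Hairpin reads outside the 3p row were listed for the chromosome 13 copies. mir-19b-1 had 147, 237 and 335 hairpin counts outside its 3p row, 2.77%, 1.58% and 1.66% of the hairpin. mir-19b-2 had 0 such counts in every library. That is 0 of 40275, which allows a share of up to 0.00745%. With the rows of miR-19b-3p exchanged, mir-19b-1 would have 145, 50 and 7 such counts and mir-19b-2 would have 2, 187 and 328, so the 0 of mir-19b-2 depends on the tie.

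mir-92a-1 had 735, 735 and 1059 counts outside its 3p row (0.411%, 0.419% and 0.442% of the hairpin), most of them in miR-92a-1-5p with 707, 717 and 1038 counts. mir-92a-2 had 0 in every library, 0 of 554871, which allows up to 0.000541%. With the rows as tied, neither X hairpin had a read apart from its 3p row. A read in that row may still run past the mature sequence, which the counts do not show.

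**Figure D2:**
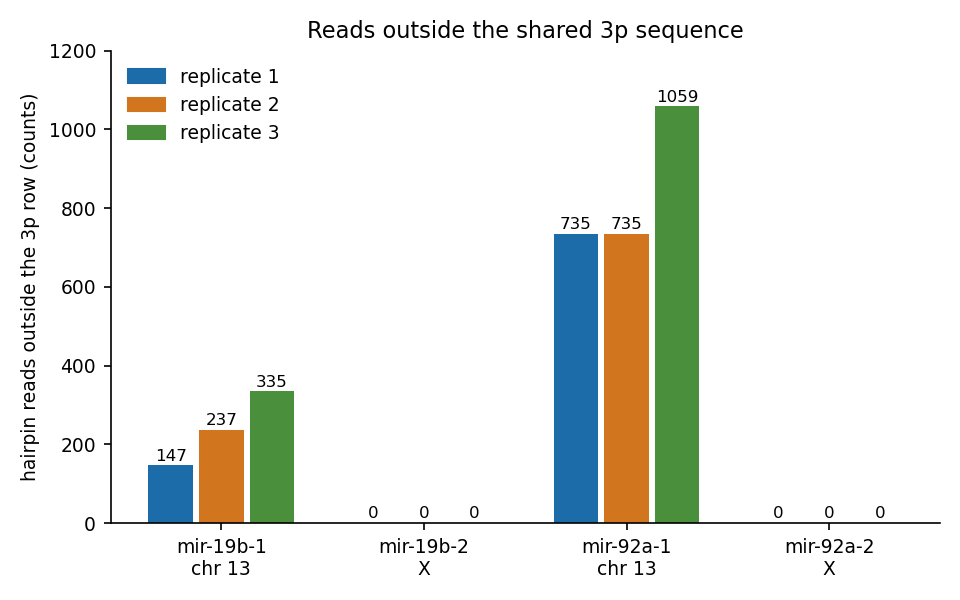
Bars show hairpin counts outside the 3p mature row in each replicate for both copies of 19b and 92a. The chromosome 13 copies had 147 to 1059 such counts, and the X copies had 0 in all replicates, which for mir-19b-2 depends on the tie of rows to loci.

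Having every read in 1 arm row was not particular to the shared members. mir-106a (0 of 3442 counts outside, limit 0.0872%) and mir-20b (0 of 2280, limit 0.132%) also had none. Among hairpins with tied mature rows and at least 1000 counts, 23 of 215 (10.7%) had all reads in a single arm row in all 3 libraries. The 4 of 4 X hairpins of that depth were among them, mir-19b-2 with the rows as tied. The 31 hairpins whose rows could not be tied, of any depth, were left out. Of their chromosome 13 paralogs, mir-17 had 2.90%, 1.27% and 0.933% outside its main arm in replicates 1, 2 and 3. In the same libraries the limit for mir-106a was 0.625%, 0.265% and 0.164%. mir-20a had 0.532%, 0.214% and 0.175% outside, below the limit for mir-20b in each library (1.61%, 0.353% and 0.241%). These were thus not told apart within a library. Over the 3 libraries together mir-20a had 0.226% outside, above the limit of 0.132% for mir-20b. mir-18b, under that depth, had 9.09%, 0% and 1.75% outside, and mir-18a had 13.04%, 9.83% and 12.4%. No test was made of these counts.

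The uncertainty over the shared members can be stated as bounds on the cluster, with the counts of the unique members taken as listed. Reads of paralogs counted under the unique members were not tested, so the lower bound covers the shared reads only. With the unique members alone, the cluster held 688, 2052 and 3130 counts, or 54.1, 186 and 267 CPM. With every miR-19b-3p and miR-92a-3p read given to X it held 354417, 370417 and 507390, or 2.79%, 3.36% and 4.33% of all hairpin counts. The upper bound was 515, 181 and 162 times the lower one. The listed values lay between, at 171061, 180891 and 249064.

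**Figure D3:**
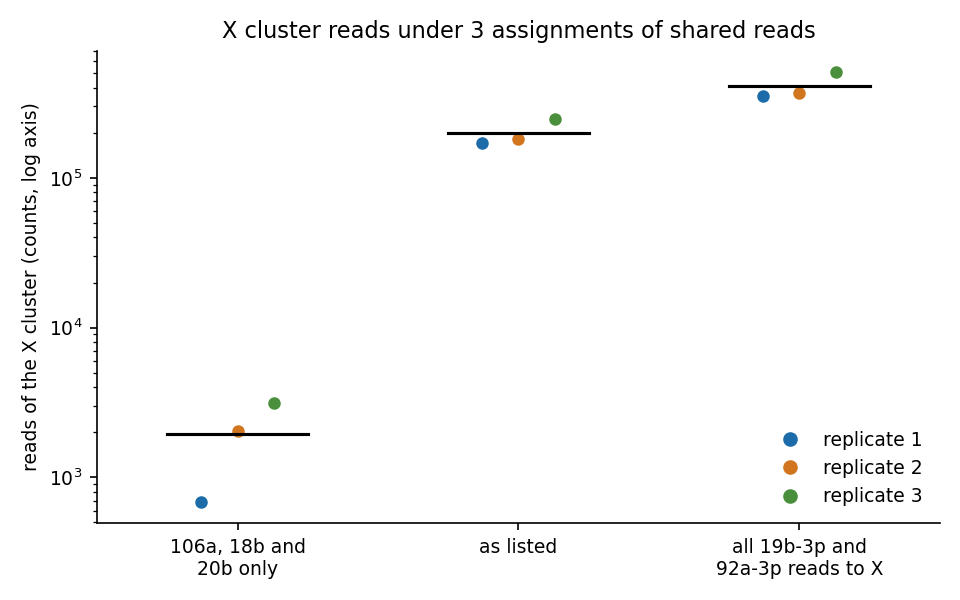
Points show the counts of the X cluster in each replicate (log axis) with the unique members only, as listed, and with all reads of miR-19b-3p and miR-92a-3p given to X, with black lines for means. The lowest and highest assignments differ by 162-fold to 515-fold within a library.

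The same choice set how large the X cluster appeared beside its relatives. As listed, X made up 25.3%, 13.2% and 12.8% of the FPKM of the 3 related clusters together, 17.1% ± 7.08, and replicates 2 and 3 alone averaged 13.01%. With the 19b and 92a copies left out of both clusters, X made up 0.205%, 0.206% and 0.219%, or 0.210% ± 0.00800. The value without the copies varied little between cultures, unlike the listed one. Giving all shared reads to chromosome 13 left X with 0.139%, and giving them all to X left it with 34.9%.

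Within the seed families the unique X members were a small part. Of all reads with the miR-17 family seed (AAAGUGC, 6 mature names), miR-106a-5p and miR-20b-5p made up 0.272%, 0.230% and 0.246%, out of 244703, 860602 and 1247751 counts. Of reads with the miR-18 seed (AAGGUGC), miR-18b-5p made up 0.256%, 0.338% and 0.257%. The shared members were the larger part of theirs, as miR-19b-3p made up 64.7% ± 4.08 of reads with the seed GUGCAAA and miR-92a-3p 75.6% ± 4.91 of those with AUUGCAC, both copies counted together.

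The hairpins were also compared with their paralogs pair by pair, to ask whether each X member is listed below or above its relative. Counts of both hairpins were fitted by edgeR's quasi-likelihood test over 520 pairs that share a miRBase number, such as 18a and 18b, together with the pairs mir-106a/mir-17, mir-20b/mir-17, mir-106a/mir-20a and mir-92a-2/mir-25, with hairpin length as an offset and the library as a block. A pair was called at a Benjamini-Hochberg adjusted p under 0.05 and an absolute log2 ratio of at least 1. Of the 520 pairs, 61.7% were called, and of the 11 pairs with an X member 8 were called, so the count of calls is near that of all pairs. The sizes are given below with this in view: the median absolute log2 ratio over all pairs was 2.09.

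All 6 pairs of a unique X member in this fit were lower on X, in 3 of 3 libraries each. Pairs with mir-93 of the same seed, and mir-20b with mir-106b, were not in it. mir-18b was 383-fold lower than mir-18a (log2 ratio −8.58 ± 0.140 (SE), edgeR adjusted p = 2.55e-05), where mir-18a had 8949, 22535 and 24858 counts. mir-20b was 505-fold lower than mir-20a (−8.98 ± 0.156, edgeR adjusted p = 3.02e-05), the fourth most abundant hairpin of the line at 459854 ± 300628 FPKM. mir-106a was 192-fold lower than mir-17 (−7.58 ± 0.220, edgeR adjusted p = 0.000102), where mir-17 had 71398, 270088 and 403088 counts. These 3 are the positional counterparts of the clusters.

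The other pairs of unique members pointed the same way. mir-106a was at −8.44 ± 0.192 against mir-20a and mir-20b at −8.12 ± 0.115 against mir-17 on the log2 scale (edgeR adjusted p = 5.59e-05 and 2.53e-05). The smallest difference was that of mir-106a from mir-106b of the MCM7 cluster, −5.03 ± 0.109 (edgeR adjusted p = 4.73e-05), or 32.7-fold lower. Pairs that share a hairpin are not independent of each other.

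For the shared members the called pairs had the higher listed value on X. All counts of mir-92a-2 were in the row of miR-92a-3p, which chromosome 13 also makes. These ratios therefore do not give the level of the X locus. mir-92a-2 as listed was 27.6-fold higher than mir-92b, a same-seed hairpin on chromosome 1 (log2 ratio 4.79 ± 0.0737, edgeR adjusted p = 2.53e-05, 3 of 3 libraries). Against mir-25 of the MCM7 cluster it was higher by 1.06 ± 0.183 on the log2 scale (edgeR adjusted p = 0.0104, 3 of 3 libraries). This last call was lost without replicate 1 (0.83, under the required ratio) or without replicate 2 (1.18, edgeR adjusted p = 0.0516).

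Pairs of the shared members with chromosome 13 were not called, although the X hairpin was the lower in 3 of 3 libraries for each. mir-19b-2 was at −0.41 ± 0.142 against mir-19a (edgeR adjusted p = 0.0729), at −0.16 ± 0.0505 against mir-19b-1 (0.0586), and mir-92a-2 at −0.04 ± 0.0614 against mir-92a-1 (0.603). The mature sequence of the latter pairs is identical, so how reads were divided and the level of each locus cannot be told apart.

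The near-identical pairs were examined further at the level of the mature arm. miR-106a-5p made up 0.688%, 0.423% and 0.456% of the reads of miR-106a-5p and miR-17-5p together (exact 95% intervals 0.628 to 0.752, 0.398 to 0.448 and 0.436 to 0.478). miR-18b-5p made up 0.256%, 0.338% and 0.257% of its pair with miR-18a-5p (0.157 to 0.396, 0.263 to 0.428 and 0.194 to 0.333). miR-20b-5p made up 0.161%, 0.208% and 0.211% of its pair with miR-20a-5p (0.138 to 0.185, 0.194 to 0.223 and 0.199 to 0.223). All 3 unique members thus lay under 1% of the pair in every library.

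The ratio to the paralog varied less than the level did. Over the 3 libraries the coefficient of variation of the ratio was 27.8% for miR-106a-5p against 60.0% for its level, 16.7% against 57.0% for miR-18b-5p, and 14.6% against 70.9% for miR-20b-5p. The X member and its paralog were both lowest in replicate 1. Ratios to other hairpins were not computed, so whether this is particular to the paralog was not tested. For miR-106a-5p replicate 1 stood above the others beyond counting error, and for miR-20b-5p it stood below.

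**Figure D4:**
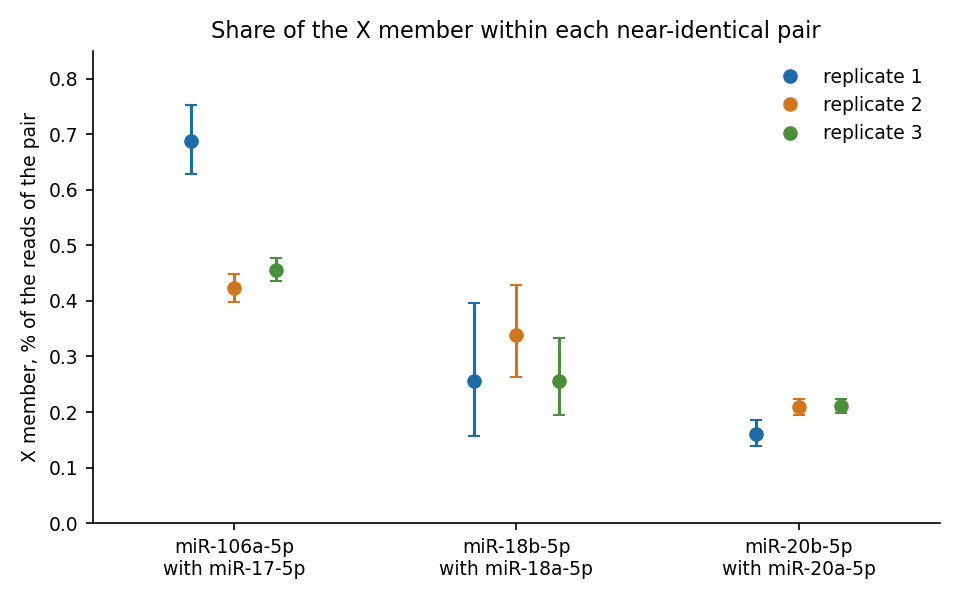
Points show the X member as a percent of the reads of itself and its chromosome 13 paralog in each replicate, with exact binomial 95% intervals that cover counting error only. All 9 values lie under 0.7%, and the intervals of miR-18b-5p overlap between replicates.

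A mature sequence that differs by 1 base from an abundant one can receive some of its reads through base errors. Among all listed mature names, 15 pairs of equal length differed by exactly 1 base. The lower member made up a median of 1.21% of the pair (range 0.290% to 33.9%), and was under 1% in 6 of the 15. The X pairs were the lowest of these: miR-18b-5p with miR-18a-5p at 0.290% and miR-106a-5p with miR-17-5p at 0.466%, each over the 3 libraries together, while miR-19a-3p with miR-19b-3p (U11C) was the highest at 33.9%. The part of misread paralogs in the counts of miR-106a-5p and miR-18b-5p was not tested. miR-20b-5p differs from miR-20a-5p and from miR-17-5p (U10C and C12U) at 2 bases each.

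Between cultures, 4 of the 5 X hairpins moved more than most. On the log2(FPKM + 1) scale, which understates ratios of low hairpins, mir-20b was higher by 2.40 in replicate 2 and 2.85 in replicate 3 than in replicate 1, at the 99.7th percentile of 298 hairpins with a mean of at least 100 counts in both. mir-19b-2 was higher by 1.74 and 2.1 (percentiles 96.6 and 95.6) and mir-106a by 1.44 and 2.05 (90.6 and 95.3). mir-18b, itself below that mean count, was higher by 1.81 and 1.46. The median of the 298 hairpins was 0.41 and 0.51.

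As listed, mir-92a-2 did not take part in this. It was higher by 0.20 and 0.57, at percentiles 37.2 and 53.7, close to the median hairpin. As listed, the chromosome 13 cluster had the same split. There mir-17 was higher by 2.13 and 2.62 and mir-20a by 2.02 and 2.46, but mir-92a-1 by only 0.18 and 0.54. The value of mir-92a-1 is no separate measurement, because it shares with mir-92a-2 a mature sequence whose reads were divided almost evenly. The same holds for mir-19b-2 and its copy mir-19b-1. How the X locus itself moved cannot be told from these copies. With mir-92a-2 nearly level and the unique members lowest in replicate 1, the share of unique members was also lowest there.

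**Figure D5:**
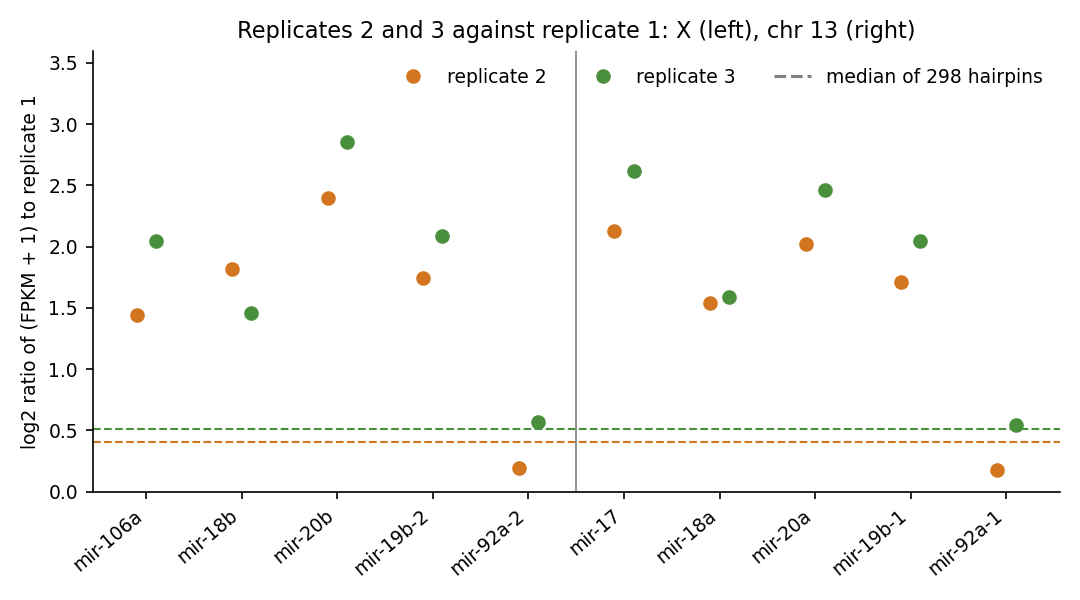
Points give the log2 ratio of (FPKM + 1) in replicates 2 and 3 to replicate 1 for X hairpins (left of the grey line) and chromosome 13 hairpins (right), and dashed lines give the median of 298 hairpins, 0.41 and 0.51. In both clusters the 92a hairpin lies near the dashed lines and the other hairpins shown lie above 1.4. Copies with the same mature sequence in both clusters are no separate measurement. The hairpin mir-19a of chromosome 13 (1.33 and 1.48) is not drawn.

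The hairpins nearest to each member over the 3 libraries were taken by Euclidean distance between centered log2(FPKM + 1) values, as a description over 3 points. mir-19b-2 lay nearest to its copy mir-19b-1 (distance 0.0306), then to mir-107 (0.0503) and mir-93 (0.0926). mir-92a-2 lay nearest to mir-597 (0.0205), its copy mir-92a-1 (0.0210) and mir-335 (0.0488). Copies share their mature sequence, so the nearness of mir-19b-1 and mir-92a-1 is no separate measurement.

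Among the unique members, mir-20b lay nearest to mir-194-2 (0.174), then to its paralogs mir-17 (0.208) and mir-20a (0.312). mir-106a lay nearest to mir-196b (0.127), mir-374a (0.168) and mir-598 (0.177), and mir-18b to mir-643 (0.115), mir-301b (0.208) and mir-548ar (0.265). No unique member had another member of the X cluster among its 3 nearest hairpins. Only hairpins with a mean of at least 100 counts could be a neighbor, which left out mir-18b.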

How the data were processed

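Small RNA libraries (NEB kit, Illumina HiSeq) were made from total RNA of 3 MV4-11 cultures. The authors deposited raw read counts and FPKM, computed from those counts, for mature arms and hairpins of miRBase release 21. The submitters' notes name Novoalign 2.08.03 and the builds hg19 and mm10, without roles. Mature rows held 12694823, 10991953 and 11682129 counts in replicates 1, 2 and 3. The FPKM implied hairpin lengths 1 base shorter than RefSeq for all 15 hairpins checked.

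Members were all listed rows the rule named, and nearest hairpins were the 3 closest profiles. Members and lists were chosen with earlier results of these data known. Mature rows were tied to hairpins by name and, for names with several rows, by table order, kept where no row exceeded its hairpin, for 630 of 661 hairpins. Pairs with at least 10 counts in all were tested with edgeR 4.0.16 (quasi-likelihood, Benjamini-Hochberg) in R 4.3.3, with the authors' total per library, and the script was tested on simulated data. limma 3.58.1, DESeq2 1.42.0, other scalings, filters and left-out replicates were alternatives. Intervals are Wilson or exact binomial, and a count of 0 was given a limit of 3 counts. Sequences are from RefSeq (GRCh38.p14), which matched 679 of 783 mature names. Python 3.11.15, pandas 2.3.3, scipy 1.17.1 and matplotlib 3.10.9 were used.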

Additional observations from a re-analysis of the deposited data

How the results depend on the processing

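Of 193 values recomputed under the alternatives, 183 kept their direction and side of the threshold or moved by less than 1 SD, and none reversed. The share of X in the 3 related clusters (17.1%) moved to 0.210% without the 19b and 92a copies and, in alternatives chosen after seeing the data, to 0.139% with reads fitting both copies given to chromosome 13 and 34.9% with them given to X. The X share of miR-19b-3p reads (50.2%) was 49.7% on hairpins and, in an alternative also chosen after seeing the data, 49.8% with its rows exchanged between the copies. Over all pairs, 321 were called, and 164 without the miR-548 pairs, which leaves fewer pairs to test (also added after seeing the data). With no replicate block 318 pairs were called and 7 of 11 with an X member. The call of mir-92a-2 over mir-25 was lost with no replicate block (log2 ratio 0.99), with no length offset (0.90), without replicate 1 (0.83) and without replicate 2 (1.18, edgeR adjusted p = 0.0516), and no other X pair changed its call. Leaving out 1 replicate gave 7 to 8 X pairs and 257 to 332 of all pairs. The planned test of arm preference was not run for the X hairpins, since none had rows for both arms. Depth limits mir-18b most (22 to 69 counts).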

Other observations

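Among hairpins with tied rows, 47 make a mature name listed in several rows and had at least 1000 counts in all. Of these, 11 had every read in 1 arm row in all 3 libraries and 36 did not. The ones named here were picked after their values were seen, and rows were tied to copies by table order. mir-7-3 had 0 of 110369 counts outside its main arm and mir-128-2 had 0 of 54952. Other copies had some, as mir-7-2 had 0, 0 and 4 counts outside its main arm in replicates 1, 2 and 3, mir-26a-1 had 12, 19 and 38, and mir-103a-1 had 28, 74 and 111. The copy mir-7-1 had 623, 1000 and 1438 counts outside its main arm, of 117894 in all, and mir-128-1 had 283, 262 and 362, of 79985. mir-7-3 and mir-128-2 were among the 23 of 215 tied hairpins (10.7%) with no read outside 1 arm row, along with mir-19b-2 and mir-92a-2. No test was made of these counts.

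let-7c with let-7a, also picked after its values were seen, was a further pair of names that differ by a single base. let-7c-5p made up 0.913% of the reads of the pair over the 3 libraries, next to 0.290% for miR-18b-5p and 0.466% for miR-106a-5p. Nearer to miR-106a-5p lay let-7e-5p with let-7a-5p at 0.501% and miR-181d-5p with miR-181b-5p at 0.671%.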
